A study of Mus musculus with 6 samples.

Results

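Horizontal cell genes were examined in the retinal RNAseq of control and EFV-treated 5XFAD mice. The 7 genes (Lhx1, Onecut1, Onecut2, Calb1, Prox1, Gja10 and Ptf1a) were chosen by symbol, and all 7 were found among the 19401 genes listed in at least 1 of the 6 libraries. All 7 also had enough counts to be tested, as 15537 genes did (10 counts or more in 3 libraries). Both groups were 9-month old 5XFAD mice, hemizygous for transgenes of mutant human amyloid precursor protein and mutant human presenilin 1 on the B6SJL background. The treated group received efavirenz (EFV), an anti-HIV drug, in drinking water from 3 to 9 months of age. The labels give its dose as 0.08 mg/kg of body weight, and the methods of the study give a slightly higher daily dose. Control mice received the aqueous detergent vehicle without the drug. There were 3 libraries per group. Each pooled 1 retina plus retinal pigment epithelium (RPE) from every one of 5 to 6 mice, described as male in the methods, so p-values measure the variation among pools and not among single animals. No wild type group was analysed here, so the values below compare treatments within 5XFAD mice.

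Horizontal cells are the inhibitory interneurons of the outer plexiform layer, where they receive glutamate from photoreceptors and feed back on them and on bipolar cells. In the developing retina, Foxn4 and Ptf1a direct progenitors toward the horizontal and amacrine fates, Onecut1, Onecut2 and Prox1 promote the horizontal cell fate, and Lhx1 is needed for the cells to take their laminar position. In the adult mouse retina, Calb1 (the calcium-binding protein calbindin) and Gja10 (the gap junction protein connexin 57) are used as markers of the mature cells. The genes differ in how restricted they are. Lhx1 and Gja10 are largely limited to horizontal cells in the mature mouse retina, whereas Calb1 and Prox1 are also made by amacrine cells, Prox1 by bipolar cells, and Onecut1 and Onecut2 by ganglion cells.

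The whole series set the following frame. Expected counts per library, rounded to whole numbers, summed to between 23455167 and 24590278, and no pair of libraries agreed within counting error (chi-square of 5.59 to 13.9 per degree of freedom). Summed FPKM (reads scaled to gene length and library total) of the 5 rod markers was 19368 to 21340 across the libraries, that of the 6 amacrine markers 377.5 to 404.0 and that of the 6 bipolar markers 283.5 to 305.7, so markers of the labelled tissue were present in every library. The 5 lens markers summed to 408.9 FPKM in control library 3 and to 4.72 to 16.0 FPKM in the other 5. The 5 RPE markers summed to 21.2 FPKM in control library 2, to 42.4 and 44.9 in the other control libraries and to 41.2 to 51.7 in the EFV libraries. Where leaving out either of these 2 control libraries turned the direction or the call of a gene named below, its value without that library is given beside it.

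The members separated into 2 abundant and 5 scarce transcripts. Prox1 had the highest level, with a mean FPKM of 27.3 ± 1.38 (SD, n = 6 libraries), followed by Calb1 with 24.96 ± 2.06. These levels were higher than those of 86.9% and 85.4% of the 19401 listed genes. Lhx1 followed at 1.65 ± 0.141, Gja10 at 1.62 ± 0.319, Onecut1 at 1.08 ± 0.150, Onecut2 at 0.660 ± 0.0785 and Ptf1a at 0.395 ± 0.157, which was higher than 23.5% of the listed genes. The step from Calb1 down to Lhx1 was 15.1-fold, and the lowest Calb1 value (22.5) lay above the highest Lhx1 value (1.79). Neighbours in this order were not always distinct. Prox1 was above Calb1 in 4 of the 6 libraries and Lhx1 above Gja10 in 4 of 6, with overlapping ranges. Gja10 was above Onecut1, and Onecut1 above Onecut2, in all 6 libraries without overlap. Onecut2 was above Ptf1a in all 6, although their ranges over the libraries overlapped (0.55 to 0.75 against 0.23 to 0.62).

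**Figure D1:**
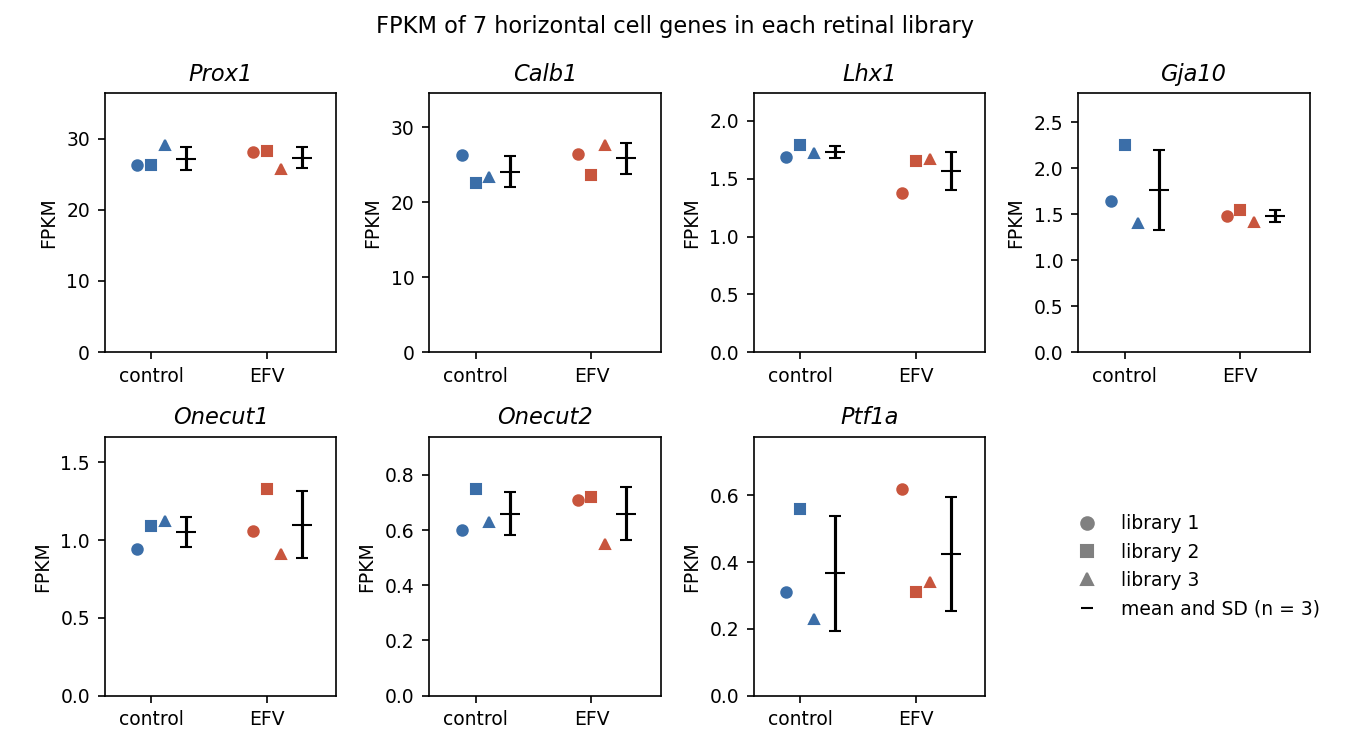
FPKM (y axis, from 0 in each panel) of each of the 7 genes in the 3 control (blue) and 3 EFV (red) libraries, with the mean and SD of each group (n = 3) in black. The groups overlap in every panel but that of Lhx1, where the control libraries lie from 1.69 to 1.79 and the EFV libraries from 1.38 to 1.67.

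FPKM compares levels between genes per unit of length, and it depends on the length of the gene model used. Of the 7 models in the files, 5 were shorter than the matching GENCODE M21 transcript, 1 had the same length and 1 was longer. The model of Onecut1 had 1824 bases against 3957 (46.1%) and that of Calb1 had 2867 against 4222 (67.9%), while Gja10 was listed with up to 4212 bases against 2117. Ptf1a had 1508 bases in both. Expected counts of 6 members were whole numbers in every library. Those of Gja10 were fractional in all 6, as RSEM gives where it divides reads between genes, so the values of Gja10 are less certain. How much these model lengths shift the order of the genes was not tested. The same model was used in both groups for the other genes, apart from Prox1, whose length over 3 listed transcripts varied between 7205 and 7451 bases.

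Setting EFV-treated against control mice asked whether the treatment changed the RNA of these genes. None of the 7 passed an unadjusted p of 0.05 in edgeR's quasi-likelihood test, where 3.04% of the 15537 genes tested did, 1.55% lower and 1.49% higher in EFV-treated mice. The adjusted p of every member was 0.999 (edgeR, BH over all genes tested). No gene of the series passed an adjusted p of 0.05 by edgeR, with 472 at an unadjusted p of 0.05, whereas DESeq2 called 11 genes at the adjusted threshold, none of them a member. Of the members, 3 had a log2 fold change above 0 and 4 below 0, with a median of -0.0038, beside 0.0012 over all genes tested. The 95% confidence interval of the fold change held 0 on the log2 scale for all 7. In bulk samples, fewer horizontal cells and less RNA per cell cannot be told apart.

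**Figure D2:**
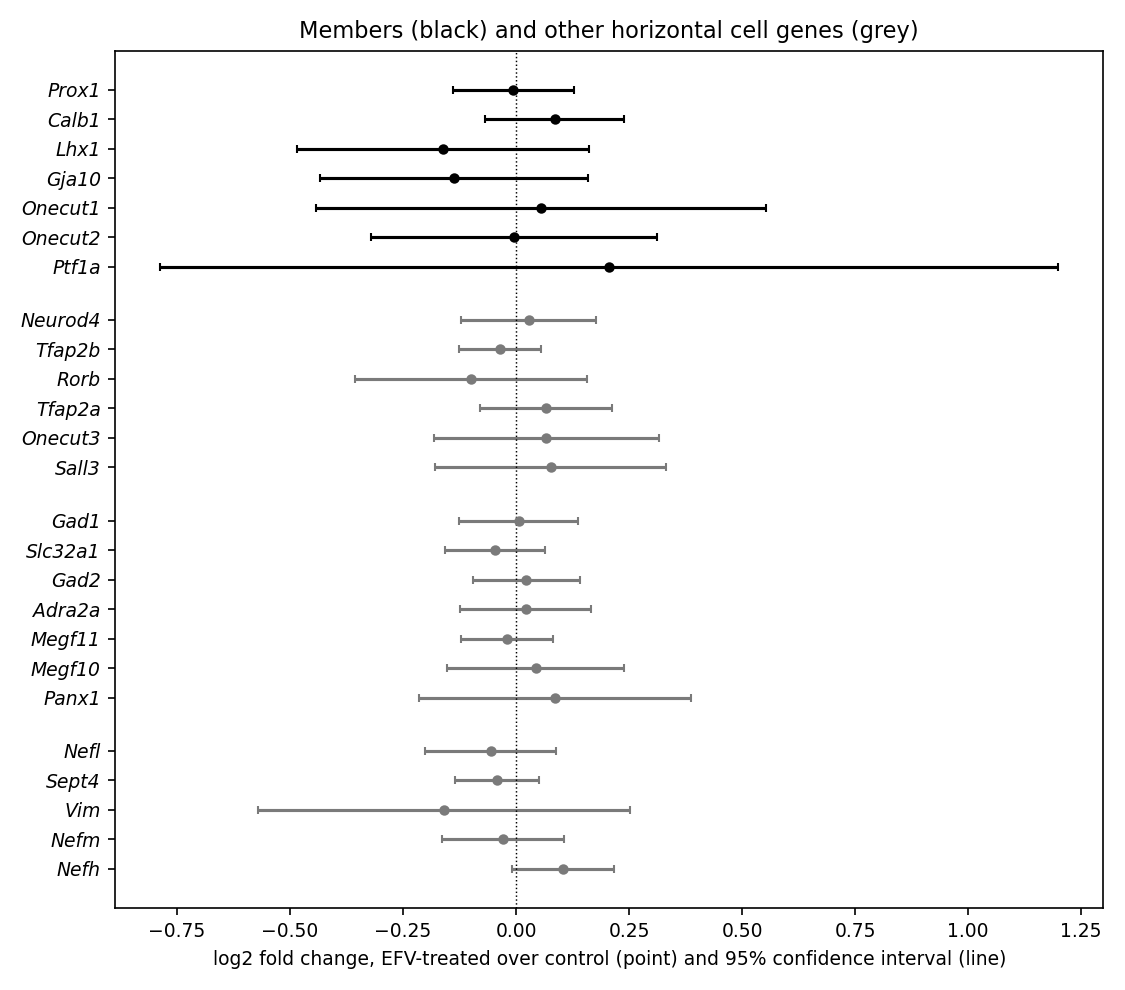
The log2 fold change of EFV-treated over control (x axis) with its 95% confidence interval from edgeR, for the 7 members in black and 18 other horizontal cell genes in grey, each block in the order of mean FPKM. Every interval crosses 0, and the interval of Ptf1a, from -0.79 to 1.2, is the widest.

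Lhx1 (LIM homeobox 1, Entrez 16869, chromosome 11 from 84517975 to 84525534 on mm10, minus strand) encodes a transcription factor. It was the only member whose groups did not overlap. Its expected counts were 112, 113 and 113 in control libraries 1, 2 and 3 and 91, 108 and 109 in EFV libraries 1, 2 and 3. The FPKM values were 1.69, 1.79 and 1.72 in control and 1.38, 1.65 and 1.67 in EFV-treated mice. All EFV libraries therefore lay below all control libraries, by a margin of 0.02 FPKM between the nearest, and EFV library 1 was the lowest. The groups were also separate in normalized counts. On that measure a separation with EFV lower was found for 4.18% of all genes tested, for 3.95% with EFV higher, and for 8.14% in either direction. The means were 1.73 ± 0.0513 and 1.57 ± 0.162 FPKM (SD, n = 3 each). On the log2 scale the difference was -0.16 (standard error 0.14, unadjusted p = 0.285 by edgeR). The 95% interval of the fold ran from 0.715 to 1.12. An exact two-sided permutation test of the FPKM gave p = 0.10, the smallest that 3 libraries against 3 allow. Without EFV library 1 the log2 fold change was -0.08. With about 100 reads per library, the spread of Lhx1 between pools (coefficient of variation 7.99%) was below the 9.64% that counting alone gives.

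Onecut1 and Onecut2 encode homologous factors with a cut domain and a homeodomain. For Onecut1 (Entrez 15379, chromosome 9 from 74861921 to 74889648, plus strand) the expected counts were 41, 45 and 48 in control and 46, 57 and 39 in EFV-treated mice, which gave FPKM values of 0.94, 1.09 and 1.12 against 1.06, 1.33 and 0.91. The highest and the lowest libraries were both EFV libraries, so the range of the treated group enclosed that of control. The fitted difference was 0.06 in log2 units (standard error 0.22, unadjusted p = 0.807 by edgeR), and it was -0.11 without EFV library 2. Onecut2 (Entrez 225631, chromosome 18 from 64340032 to 64398488, plus strand) had expected counts of 199, 234 and 204 in control and 234, 236 and 179 in EFV-treated mice. Its FPKM values were 0.60, 0.75 and 0.63 against 0.71, 0.72 and 0.55, with group means of 0.660 in both. EFV over control came to -0.0038 in log2 units (standard error 0.14), and the 95% interval of the fold was 0.801 to 1.24. EFV library 3 was the lowest of the 6 for both genes.

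Prox1 (Entrez 19130, chromosome 1 from 190118035 to 190170827, minus strand), the Prospero homeobox factor, was measured with the most reads. Expected counts were 4695, 4531 and 5121 in control and 5088, 4931 and 4538 in EFV-treated mice, and the FPKM values were 26.2, 26.3 and 29.1 against 28.0, 28.3 and 25.7. The groups overlapped, and the highest library was control 3. For EFV over control this gave -0.0068 in log2 units (standard error 0.06), with a 95% interval of the fold from 0.907 to 1.09, the narrowest of the 7. Lens fiber cells also make Prox1, and control library 3 was the library high in lens markers. Without it the log2 fold change of Prox1 was 0.04, whereas the lens crystallin gene Crybb1 went from -3.36 with that library to -0.02 without it. The part of lens RNA in the Prox1 value was not tested. Lymphatic endothelium is another site of Prox1, and the summed FPKM of its 4 markers was 29.1 to 30.3 in control and 26.8 to 28.5 in EFV-treated mice. Most of this sum was Pdpn, with 19.42 to 22.94 FPKM over the 6 libraries, and none of the 3 markers tested passed an unadjusted p of 0.05 in edgeR. Ccl21a, the fourth, was at 0 in 3 libraries. The part of these cells in the Prox1 value was not tested.

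Ptf1a (Entrez 19213, chromosome 2 from 19445663 to 19447501, plus strand), which acts mainly in retinal development, stood near the detection limit. The expected counts were 11, 19 and 8 in control and 22, 11 and 12 in EFV-treated mice. The exact 95% Poisson interval, which covers counting error only, was 3.45 to 15.8 for the lowest library and 13.8 to 33.3 for the highest. FPKM ranged from 0.23 to 0.56 in control and from 0.31 to 0.62 in EFV-treated mice, so the groups overlapped over most of their range. EFV over control was 0.21 in log2 units (standard error 0.44) and the 95% interval of the fold was 0.579 to 2.30. The coefficient of variation between pools was 44.2%, beside the 26.9% that counting alone gives. The direction turned without EFV library 1 (-0.16) or without control library 3 (-0.04), and the value rose to 0.65 without control library 2.

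Calb1 (Entrez 12307, chromosome 4 from 15881264 to 15906709, plus strand) was the member with the smallest unadjusted p. Its expected counts were 1822, 1484 and 1602 in control and 1818, 1612 and 1874 in EFV-treated mice. The FPKM values were 26.3, 22.5 and 23.4 against 26.4, 23.6 and 27.6. Control library 1 lay among the treated libraries, so the groups overlapped. The means were 24.1 ± 2.01 and 25.8 ± 2.06 FPKM (SD, n = 3 each), the log2 fold change was 0.09 (standard error 0.07, unadjusted p = 0.242 by edgeR) and the 95% interval of the fold was 0.953 to 1.18. A Poisson model, in which counting is the only source of error, gave Calb1 an unadjusted p of 0.0032 and an adjusted p of 0.0296 (BH over all genes), and it also called 13.1% of all genes tested at the adjusted threshold. The coefficient of variation of Calb1 between pools was 7.29%, 3.01 times the 2.42% that counting alone gives. For Prox1 this ratio was 3.84 and for Onecut2 2.03, whereas for Onecut1 it was 1.06 and for Gja10 1.2.

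Gja10 (Entrez 14610, chromosome 4 from 32600865 to 32602382, minus strand) forms the gap junctions that couple horizontal cells into a network. The counted model, with up to 4212 bases, is longer than this interval and reaches beyond it. The expected counts were 167.6, 173.8 and 142.0 in control and 150.6, 156.5 and 142.3 in EFV-treated mice. In FPKM the values were 1.64, 2.25 and 1.40 against 1.48, 1.55 and 1.42, and control library 2 stood apart from the other 5. For this gene 2 transcripts were listed, 1 of them a BGI_novel transcript, and its FPKM depends on the length that RSEM assigned in each library. That length was 4212 bases in 5 libraries and 3344 bases in control library 2. When all libraries were given the length of 4212 bases, the control values were 1.64, 1.79 and 1.40 FPKM, and those of EFV-treated mice were unchanged. The control mean ± SD of 1.76 ± 0.438, against 1.48 ± 0.0651 in EFV-treated mice, is that of the deposited values. It includes the shorter length of control library 2. The log2 ratio of the counts, which does not use the length, was -0.14 (standard error 0.13, unadjusted p = 0.320 by edgeR), and the 95% interval of the fold was 0.740 to 1.12. In limma on log2(FPKM + 0.1) it was -0.21 as deposited and -0.10 with 1 length per gene. Without control library 2, which was also the lowest in RPE markers, the log2 fold change of the counts was -0.05.

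**Figure D3:**
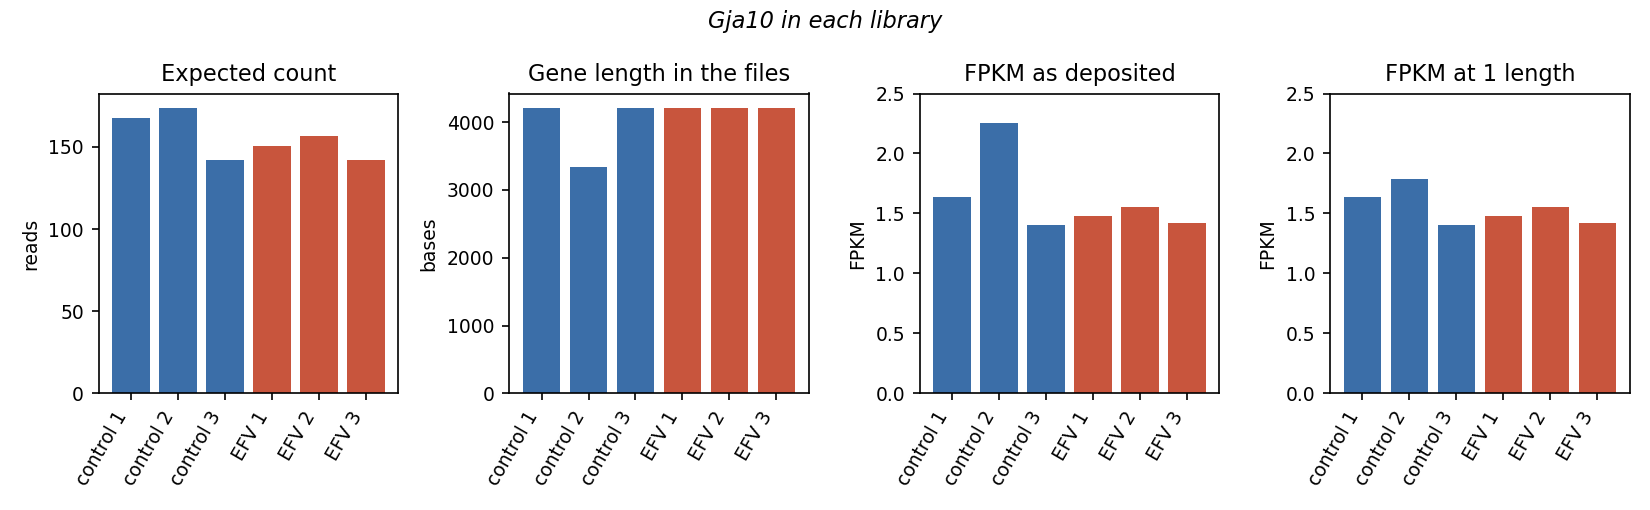
Gja10 in each control (blue) and EFV (red) library, from left to right as the expected count in reads, the gene length in bases, the deposited FPKM and the FPKM rescaled to 4212 bases in every library. Control library 2 has 174 reads beside 142 to 168 in the others, but a length of 3344 bases, and its FPKM falls from 2.25 to 1.79 when the length is held fixed.

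Library by library, the 7 genes did not move as a block. On the log2 scale of TMM-normalized counts, each gene was set against its own mean over the 6 libraries. In EFV library 3, 5 of the 7 genes lay below their mean and 4 had their lowest value (Onecut1, Onecut2, Prox1 and Gja10), while Calb1 had its highest value there. In control library 2, 5 genes lay above their mean, 3 had their highest value (Lhx1, Onecut2 and Gja10) and Calb1 had its lowest. Calb1 and Onecut1 were on opposite sides of their means in all 6 libraries. Onecut1 and Onecut2 were on the same side in 4 of 6, with a root mean square difference of 0.12 between their centred values. All these profiles share the same 6 libraries and scaling factors. Without control library 2 the log2 fold changes were -0.13 for Lhx1 and 0.10 for Onecut2.

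**Figure D4:**
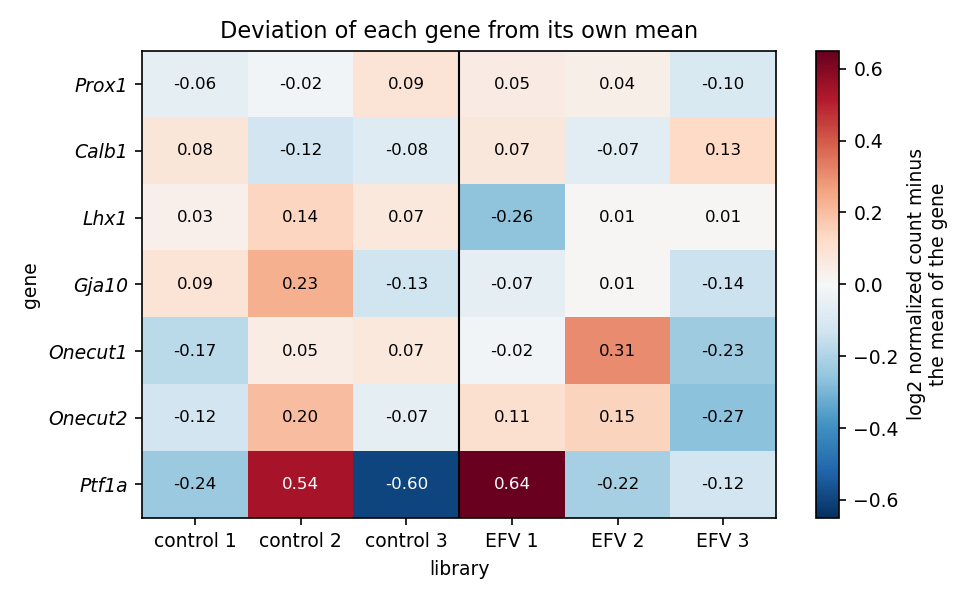
Deviation of each gene (rows) from its own mean in each library (columns), in log2 units of normalized counts, with the value printed in each cell and control and EFV libraries on either side of the line. EFV library 3 holds the lowest value of 4 genes and the highest of Calb1, and the deviations of Ptf1a, from -0.60 to 0.64, are the largest.

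The genes with the most similar profiles were sought among those with a mean FPKM of at least 1, 13172 genes beside each member of that set and 13173 beside Onecut2 and Ptf1a. For Lhx1 these were Tpm3 and Tmem44, with root mean square differences of 0.023 and 0.025 from the centred log2 values over the 6 libraries. For Calb1 they were Pgbd5 (0.018) and Impdh2 (0.019). The nearest profiles to Prox1 were those of 9130011E15Rik and Mark2, both at 0.014. Among the 7 genes themselves, the nearest was Gja10 for Lhx1 (0.14), Onecut1 for Prox1 (0.14) and Prox1 for Calb1 (0.14). Nearest here means the smallest difference and not a shared direction. Calb1 and Prox1 were on the same side of their means in only 2 of the 6 libraries. Their difference of 0.14 exceeded the SD of either profile (0.105 for Calb1 and 0.072 for Prox1). For Gja10 the nearest profiles were Faim (0.033) and Nck1 (0.035), for Onecut1 Dnajb14 (0.043) and a BGI_novel gene (0.063), and for Onecut2 Zfp524 and Cep112, both at 0.041. Ptf1a had no profile nearer than 0.18, at which a BGI_novel gene stood. Its own SD over the libraries was 0.49 log2 units, beside 0.072 for Prox1, so these differences are not comparable between members. A search of so many genes over 6 libraries can give near profiles without any link. Whether these genes vary together was not tested.

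Other genes of horizontal cells were taken from 3 lists with 19 genes, of which 18 had enough counts to be tested. None of the 18 passed an unadjusted p of 0.05 in edgeR, 10 had a log2 fold change above 0 and 8 below 0, and the median was 0.01. Among the transcription factors, 6 of 7 were tested and log2 fold changes lay between -0.10 and 0.08. Neurod4, a basic helix-loop-helix factor, was the most abundant with 54.7 ± 4.78 FPKM (SD, n = 3) in control and 56.4 ± 1.58 in EFV-treated mice. In pooled retina plus RPE, the part of horizontal cells in such levels was not measured. Tfap2b and Tfap2a, AP-2 factors of amacrine and horizontal cells, had 31.4 ± 0.777 against 31.0 ± 0.566 and 11.1 ± 0.536 against 11.8 ± 0.854 FPKM. Rorb, a nuclear receptor upstream of the fate decision, differed by -0.10 on the log2 scale (standard error 0.11). Its direction rested on control library 2, without which the value was 0.018, and without control library 3 it was -0.21 (unadjusted p = 0.0502 by edgeR). Neurod4, at 0.03 with all libraries, was at -0.04 without control library 3. Foxn4 was listed in EFV library 2 alone, at 0.01 FPKM, and was not tested.

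The genes of inhibitory signalling, channels and adhesion comprised 7 genes, 5 with a log2 fold change above 0 and 2 below. Gad1, which makes the transmitter GABA, had 90.3 ± 5.93 FPKM (SD, n = 3) in control and 91.5 ± 5.32 in the treated group, which is 0.0056 on the log2 scale (standard error 0.06), and the value was -0.014 without control library 2 and -0.024 without control library 3. Slc32a1, the vesicular transporter of GABA and glycine, differed by -0.05 (standard error 0.05) and Gad2 by 0.02 (standard error 0.05). For Panx1, the pannexin channel of horizontal cell feedback, the value was 0.09 (standard error 0.13). Amacrine cells also make Gad1, Gad2 and Slc32a1, so these levels are not those of horizontal cells alone.

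In the cytoskeletal list, the neurofilament gene Nefh had the smallest p of the 18 genes, with 23.1 ± 1.17 FPKM in control and 25.1 ± 1.11 in the treated group (SD, n = 3 each). This was a log2 difference of 0.10 (standard error 0.05) with an unadjusted p of 0.0656 by edgeR. Nefh passed without EFV library 2 (unadjusted p = 0.0416 by edgeR), as 541 of all genes tested did. With scaling by total counts it also passed (unadjusted p = 0.0463 by edgeR), as 452 genes did. Its adjusted p was 0.998 in both (edgeR, BH over all genes tested). Nefh did not pass without control library 2 (0.12, unadjusted p = 0.065 by edgeR) or control library 3 (0.06, unadjusted p = 0.238 by edgeR). Among the other settings it passed in the Poisson model alone, which called 25.1% of all genes. Nefl, a further neurofilament chain and the most abundant gene of the list, differed by -0.06 on the log2 scale (standard error 0.06), and ganglion cells make both. Vim, the intermediate filament protein of Müller and horizontal cells, had FPKM values of 57.73, 45.04 and 84.85 in control and 57.75, 52.99 and 59.25 in EFV-treated mice. The highest was in control library 3, the library high in lens markers, and the lowest in control library 2. The log2 fold change of Vim, -0.16 with all libraries, turned to 0.12 without control library 3 (unadjusted p = 0.215 by edgeR) and was -0.34 without control library 2 (unadjusted p = 0.0374 by edgeR). Lens cells also make vimentin, and its part in this value was not tested. Sept4, a septin, had 94.4 ± 3.56 against 92.8 ± 0.674 FPKM (SD, n = 3 each). The groups did not overlap in normalized counts for 2 of the 18 genes, Tfap2b and Sept4, both lower in EFV-treated mice, beside 8.14% of all genes tested.

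Markers of the neighbouring cells were set beside the members. Of 33 marker genes of amacrine, ganglion, bipolar, Müller, rod and cone cells, none passed an unadjusted p of 0.05 in edgeR, and the median log2 fold changes of the 6 lists lay between -0.05 and 0.0055. Without control library 3, 2 of them passed, Cabp5 of bipolar cells at -0.20 (unadjusted p = 0.0021 by edgeR) and Slc17a6 of ganglion cells at -0.15 (unadjusted p = 0.0251 by edgeR). In that setting 523 of all genes tested passed, and the adjusted p of both markers was 0.9996 (edgeR, BH over all genes tested). The summed FPKM of the 6 amacrine markers was 386.1 to 404.0 in control and 377.5 to 402.8 in EFV-treated mice, and that of the 6 ganglion cell markers was 279.8 to 306.7 against 287.6 to 321.1. For the 5 Müller cell markers it was 1065 to 1119 against 1059 to 1107. The RPE and lens lists were the ones with members past this p. In the RPE list 2 of 5 genes were higher in EFV-treated mice (Rpe65 and Lrat), and in the lens list 5 of 5 were lower, beside 3.04% of all genes tested. The study already lists Rpe65, Lrat and the lens genes Crybb1, Crybb3, Mip and Bfsp2 as differentially expressed in this RNAseq. Both lists thus hold genes called from the same libraries, and the 3.04% is no test of them. Without control library 2, the log2 fold change of Rpe65 went from 0.58 to 0.29 and that of Lrat from 0.65 to 0.42. There Rpe65 still passed (unadjusted p = 0.0386 by edgeR) and Lrat no longer did (unadjusted p = 0.121 by edgeR). With control library 3 left out instead, Rpe65 was at 0.83 (unadjusted p = 0.0064 by edgeR) and Lrat at 1.06 (unadjusted p = 0.00049 by edgeR). Without control library 3 none of the 5 lens genes passed, with unadjusted p from 0.452 to 0.971 by edgeR. No marker of these lists was at 0 in all libraries. The summed FPKM of the 7 horizontal cell genes themselves, nearly all of it Prox1 and Calb1, was 55.2 to 57.7 in control and 57.4 to 59.7 in EFV-treated mice.

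**Figure D5:**
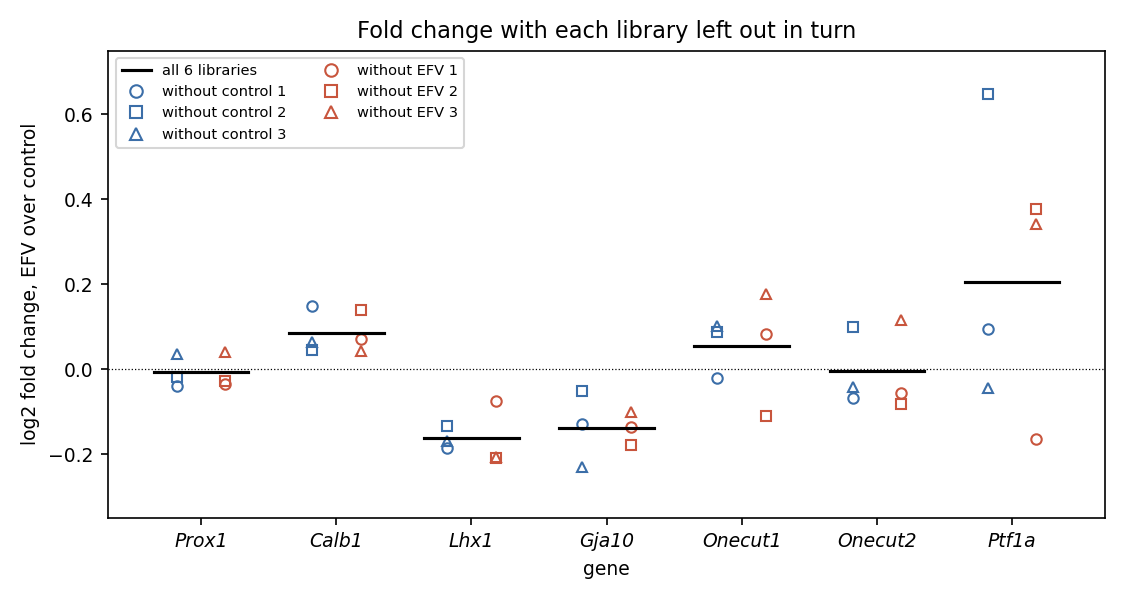
The log2 fold change of EFV-treated over control (y axis) for each gene, with all 6 libraries (black line) and after leaving out 1 library at a time (open symbols, blue for control and red for EFV). Lhx1 and Gja10 stay below 0 and Calb1 above 0 in every case, while the other 4 genes change sign, Ptf1a between -0.16 and 0.65.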

How the data were processed

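RNA was measured in 3 control and 3 EFV-treated pools of retina plus RPE. The authors aligned filtered reads to mm10 with Bowtie2 2.2.5 and deposited, per library, the expected count of each gene from RSEM 1.2.12, which is not normalized, and its FPKM, the count divided by gene length and library total. HISAT2 2.0.4 is also named in the submitters' processing notes. The settings of the read filter, the annotation release and the strandedness are not given in the sources used here.

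Genes absent from a library were set to 0 there. Expected counts were rounded, and genes that reached 10 counts in 3 or more libraries (14377 with an Entrez identifier and 1160 BGI_novel) entered a two-sided quasi-likelihood F test in edgeR 4.0.16 under R 4.3.3. It used TMM scaling (factors 0.984 to 1.01), a model of group alone and Benjamini-Hochberg (BH) adjustment. Standard errors are the log2 fold change divided by the root of the F statistic. The methods were tested on simulated data. Positions are from RefSeq (GRCm38, the assembly of mm10), where 17680 of 17705 Entrez identifiers were found. DESeq2 1.42.0, limma 3.58.1 on log2 FPKM, a Poisson model and other scalings and filters were alternatives. Counts per library totalled 23455167 to 24590278.

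The members and lists were chosen with earlier results of these data known. Named genes beyond the members were the 3 most abundant and the 2 with the strongest test result in each list of other horizontal cell genes, any past the unadjusted threshold, and the 2 nearest profiles of each member, 1 of which is not reported here. Nefm, Megf10, Megf11, Adra2a, Sall3 and Onecut3 were also in these lists and appear in the plot of fold changes only.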

Additional observations from a re-analysis of the deposited data

How the results depend on the processing

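Under 11 alternatives in scaling, filter, tool, unit and block, and with each of the 6 libraries left out, the members had no unadjusted p of 0.05 or less, with 1 exception. In the Poisson model 1 member passed, Calb1, with a log2 fold change of 0.084 (unadjusted p = 0.0032 from edgeR's likelihood ratio test at a dispersion of 0). The numbers of all genes at an adjusted p of 0.05 were 0 in edgeR, 11 in DESeq2 and 2043 in the Poisson model, and 0 to 1 with 1 library left out, the 1 being BGI_novel_G001464 without EFV library 1. At an unadjusted p of 0.05 they were 472, 270 and 3901. Of the 18 other horizontal cell genes tested 7 passed in the Poisson model, which called 25.1% of all genes at that threshold, 1 with scaling by total counts (Nefh) and 0 to 1 with a library left out (Vim without control library 2, Nefh without EFV library 2). Scaling by total counts turned Onecut2 to 0.012 and Prox1 to 0.0084 on the log2 scale. Prox1 was also turned by limma, to 0.0080 with a pseudocount of 0.1 with or without the filter, to 0.0078 with a pseudocount of 1, and to 0.0091 with 1 length per gene, an alternative chosen after seeing the data. The cause was not tested. With 1 library left out, log2 fold changes ranged from -0.21 to -0.08 for Lhx1, from -0.11 to 0.18 for Onecut1, from -0.081 to 0.12 for Onecut2, from 0.04 to 0.15 for Calb1, from -0.038 to 0.040 for Prox1, from -0.23 to -0.05 for Gja10 and from -0.16 to 0.65 for Ptf1a. Onecut1 also turned without control library 1, Onecut2 without control library 2 or EFV library 3, and Prox1 without control library 3 or EFV library 3. A minimum of 50 counts left Onecut1 and Ptf1a untested. The replicate numbers were not treated as pairs: the deviations of same-numbered libraries correlated at 0.12, 0.083 and 0.099, each library correlating best with its own number, and the replicate block moved the genes at an unadjusted p of 0.05 from 472 to 520 and no member past it.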
